A study of Homo sapiens with 4 samples.

Results

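KP4 is an established human cell line of pancreatic ductal adenocarcinoma, and E5 is the labels' name for the KP4 cells that the series title calls resistant to FOLFIRINOX, a chemotherapy combination of a fluoropyrimidine, irinotecan and oxaliplatin with folinic acid. The comparison is between 3 libraries from E5 cells given DMSO (vehicle) for 96 h and 3 from E5 cells given the drug mix for 96 h, taken by their column names from the stranded counts, and these are 6 of the 12 libraries in the series. The mix held 10 µM of an agent written 5-F, 5 µM oxaliplatin and 25 nM SN-38, which the body forms from irinotecan. The other 6 libraries are control KP4 cells, 3 given vehicle and 3 given the same mix for 96 h, and all cells grew in DMEM with serum. The design text speaks of 5 cycles of DMSO or FOLFIRINOX, and the genotype field names the E5 vehicle cells and the E5 FOLFIRINOX cells apart, so it is not known whether both E5 groups had the same earlier cycles. A change with FOLFIRINOX therefore means here a difference between these 2 E5 groups. Whether E5 is a clone or a pool is not given either, and counts do not measure survival.

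SN-38 traps topoisomerase I on DNA, fluoropyrimidines block thymidylate synthase and enter RNA and DNA, and oxaliplatin forms platinum adducts and is also known to disturb the making of ribosomes. Interferon signalling through STAT and IRF factors switches on antiviral effectors and antigen presentation, SREBP factors switch on the making of sterols and fatty acids, and the unfolded protein response and ATF4 switch on chaperones of the endoplasmic reticulum (ER) and amino acid enzymes.

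Gene reads per library ranged from 7359034 to 21775030 over all 12 libraries and from 7766074 to 19118134 over the E5 libraries. Of 60651 gene rows, 30759 had a read in an E5 library and 15636 passed the filter on low counts and were tested. Levels are given as CPM, the gene's reads relative to the size of the library after TMM scaling, values joined by ± are a mean and SD over 3 libraries or a log2 fold change and its SE, and a gene is said to have risen or fallen where edgeR's quasi-likelihood test gave a Benjamini-Hochberg adjusted p under 0.05. In bulk RNA, fewer cells of a kind and less RNA per cell cannot be told apart. Of 14 genes listed for the identity of a ductal line, KRT8 and KRT18, keratins of simple epithelium, were at 240.3 ± 18.7 and 530.1 ± 24.3 CPM in E5 vehicle, and SOX9, a ductal transcription factor, was at 103 ± 6.73 CPM. EPCAM, an epithelial surface protein, was at only 0.291 ± 0.147 CPM, KRT19 at 4.38 ± 0.118 and VIM, the mesenchymal filament vimentin, at 2873 ± 80.6 CPM. MSLN had no read in any E5 library, so the epithelial markers EPCAM, KRT19 and MSLN were low or absent. CDKN2A, which is on the list but is not an epithelial marker, had no read in any E5 library either. The summed level of the 14 was 6280.0 to 6510.0 CPM in vehicle and 4830.0 to 5330.0 with FOLFIRINOX, with 3 of 12 tested higher and 5 lower. Most of that sum was VIM (means of 2870 and 2000 CPM) and CD44 (2530 and 1980), so it mainly follows them. KRT18 (530 and 622 CPM) and SOX9 (103 and 132) were among the genes that rose.

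With FOLFIRINOX, 3909 genes rose and 4265 fell in E5 cells, which is 25.0% and 27.3% of the genes tested and 52.3% together. Of these, 928 rose and 667 fell by at least 2-fold, and 243 and 79 by at least 4-fold. The 3 vehicle and 3 drug libraries overlapped for 265 of the 8174 changed genes. A lack of overlap, given below for single genes, is thus the rule among changed genes and not particular to them. On the authors' FPKM values, as log2(FPKM + 0.1) with limma, 3896 genes rose and 2775 fell, and with total counts only in edgeR 4648 rose and 3592 fell, so the split of directions moves with the values and the scaling used. The log2(FPKM + 0.1) scale moves the median log2 fold change of all genes from 0.00 to 0.07 in E5 cells, and from 0.00 to 0.19 in control cells. In control cells 5094 genes rose (32.6%) and 5109 fell (32.7%), 65.3% together, and the SD of the log2 fold changes over all tested genes was 0.963 against 0.713 in E5 cells. The response itself differed between E5 and control cells, by the interaction term of the same fit, for 25.7% of genes, with 2080 higher (13.3%) and 1933 lower (12.4%) in E5 cells. This second split also moves with the scaling, to 1596 and 2448 with total counts only and to 751 and 1993 on log2(FPKM + 0.1). Counts for gene lists below are to be read beside the shares of all genes. These are 25.0% higher and 27.3% lower in E5 cells, and 13.3% and 12.4% for the difference.

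Values by library follow for genes that carried most reads among those changed by at least 2-fold. These genes were picked as changed, so they do not measure the spread of the libraries over other genes. SCD, the enzyme that puts the first double bond into fatty acids, had 1760.0, 1569 and 1669 CPM in the 3 vehicle libraries and 346, 311 and 301 with FOLFIRINOX, a log2 fold change of -2.38 ± 0.06 (SE, adjusted p = 8.5e-14). GPRC5A, an orphan receptor of epithelial cells, went from 706, 650.5 and 624 to 246, 239 and 230.2 CPM (log2 fold change -1.47), and MAGED1, an adaptor of the MAGE family, from 436, 410.2 and 403 to 130.4, 125 and 112 (-1.77). For none of these 3 genes did a drug library come near a vehicle library. MLEC, a lectin of the ER, S100A10, a partner of annexin, ARRB1, a beta-arrestin, and ALDH1A3, which makes retinoic acid, fell with log2 fold changes of -1.14, -1.29, -1.34 and -1.06.

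Among the abundant genes that rose, ODC1, the first enzyme of polyamine synthesis, had 359.6, 375 and 365 CPM in vehicle and 837, 799 and 753 with FOLFIRINOX (1.12 ± 0.05, adjusted p = 7e-11). VEGFA, the main growth factor for blood vessels, had 294, 284 and 288 and then 611, 638 and 638 CPM (1.12), and this rise was larger than in control cells by 0.63 on the log2 scale (adjusted p = 4.2e-05). SOD2, the superoxide dismutase of mitochondria, rose from 344 ± 5.6 to 783 ± 64 CPM, and BIRC3, an inhibitor of apoptosis that NF-kappaB induces, from 69.2, 97 and 82.1 to 238, 253 and 292 (1.65 ± 0.14). The long noncoding RNA NEAT1, the scaffold of paraspeckles, rose from 76 ± 13.9 to 215 ± 38.3 CPM. NIFK and RPF2, which act in the maturation of the large ribosomal subunit, rose with log2 fold changes of 1.14 and 1.22.

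Large folds at lower levels pointed to genes of many kinds. CEMIP, which breaks down hyaluronan, rose from 15.9, 16.7 and 16.2 to 73.1, 73.7 and 60.0 CPM (2.08). CDK15, a little-studied kinase of the CDK family, rose from 2.54, 3.46 and 2.98 to 14.9, 12.2 and 14.3 CPM (2.17), and the zinc finger gene ZSCAN12 from 4.55, 7.73 and 6.21 to 27.3, 27.3 and 28.3 (2.10). Drug and vehicle libraries stood apart for all 3. RGS5, a brake on G protein signalling, RAB3IL1, an exchange factor for RAB3 proteins, VNN1, the pantetheinase vanin, and MARCO, a scavenger receptor better known from macrophages, rose with log2 fold changes of 2.05, 2.46, 2.38 and 2.20. LFNG, the glycosyltransferase that tunes Notch receptors, fell from 5.89, 6.16 and 5.36 to 1.08, 0.926 and 1.29 CPM (-2.39 ± 0.21, adjusted p = 7.9e-08). PCK2, the mitochondrial enzyme that makes phosphoenolpyruvate, fell from 26.8, 20.9 and 19.8 to 4.08, 4.34 and 4.63 CPM (-2.35), further than in control cells (difference -1.12, adjusted p = 0.00025).

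**Figure D1:**
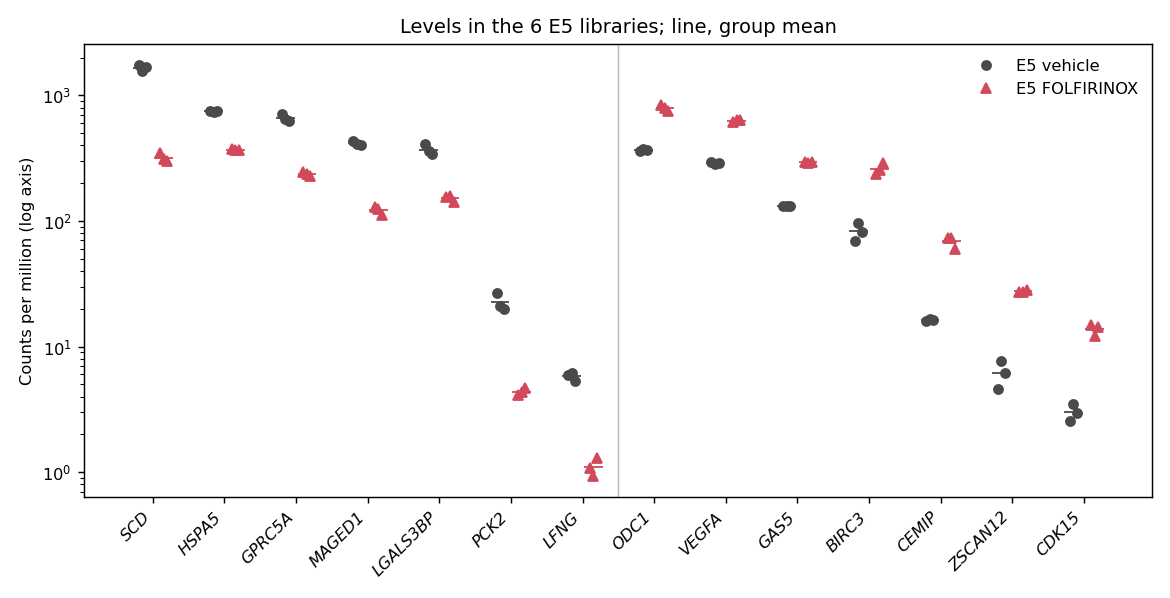
Level of 14 genes in the 6 E5 libraries, in CPM on a log axis, 1 point per library, with vehicle and FOLFIRINOX in separate colours. For each gene the 3 drug libraries lie on one side of the 3 vehicle libraries, below them from SCD to LFNG and above them from ODC1 to CDK15.

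Interferon effectors, the antiviral proteins made downstream of interferon, fell almost without exception. Of 50 tested of 52 listed, 48 fell, none rose and 2 did not pass the test (ISG20 and IFITM3), with a median log2 fold change of -1.22 against 0.00 over all tested genes. OAS3, which senses double-stranded RNA, had 331, 282 and 309.8 CPM in vehicle and 103, 96.9 and 85.3 with FOLFIRINOX (-1.69 ± 0.07, adjusted p = 5.2e-11). OAS1, of the same family, had 76.5, 63 and 79.2 and 14.3, 12.9 and 13.1 CPM (-2.43). ISG15, a ubiquitin-like protein, went from 33.4, 30.1 and 30.6 to 13.5, 14.7 and 13.2 CPM (-1.18), and ADAR, which edits double-stranded RNA, from 647, 616 and 629 to 388, 369.5 and 318 (-0.81). No drug library reached a vehicle library for these 4 genes. TRIM22, XAF1, CMPK2 and RSAD2 fell with log2 fold changes of -2.34, -2.27, -2.48 and -2.37.

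The starting level of these genes was high in E5 vehicle cells. OAS1 had 72.9 ± 8.66 CPM there against 3.27 ± 0.196 in control vehicle, and with FOLFIRINOX it had 13.4 ± 0.747 against 2.23 ± 0.383, so the E5 drug libraries still read above both control groups. TRIM22 ran from 19.6 ± 1.71 to 3.84 ± 0.718 in E5 cells and from 0.673 ± 0.292 to 0.0945 ± 0.0367 in control cells, and IFI6, a mitochondrial interferon protein, from 56 ± 8.38 to 16.1 ± 0.765 and from 9.03 ± 0.557 to 7.76 ± 1.92. The 2 vehicle groups were not tested against each other here. The response was lower in E5 than in control cells for 28 of the 50 effectors and higher for 1 (LGALS3BP, a secreted galectin ligand), where the response of 12.4% and 13.3% of all genes differed in those directions. In control cells 23 fell and 4 rose, with a median of -0.56, which becomes -0.21 on log2(FPKM + 0.1). Some were near 0 there, where a fall can hardly be measured. IFI44L had 4 counts in control vehicle and 10 in control FOLFIRINOX, and IFITM1 had 8 and 9. The IFITM and APOL genes have near-identical relatives, so their separate values are uncertain.

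The interferon-stimulated response element, searched as GAAANNGAAA on both strands from 250 bases before to 50 after the start of a gene, was found in 25 of 38 effectors with a RefSeq promoter (65.8%), against 2.8% of 10314 protein-coding genes. The windows below, from RefSeq on GRCh38.p14 and written 5′ to 3′ along the gene, show the match in capitals with its flanks for 5 genes that fell, and for IFITM3, which did not pass. All windows end before the RefSeq start of the gene. IFI44L carries the element in a repeated stretch, and both copies are shown.
BST2, chr19:17405725-17405780, minus strand: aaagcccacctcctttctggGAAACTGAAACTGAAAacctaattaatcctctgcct
IFIT1, chr10:89392487-89392549, plus strand: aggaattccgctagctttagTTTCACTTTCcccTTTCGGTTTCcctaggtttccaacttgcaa
ISG15, chr1:1013364-1013419, plus strand: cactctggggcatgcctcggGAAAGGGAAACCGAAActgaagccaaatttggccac
IFI27, chr14:94110608-94110670, plus strand: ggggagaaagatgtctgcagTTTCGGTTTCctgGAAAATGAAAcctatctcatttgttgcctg
IFI44L, chr1:78620264-78620313, plus strand: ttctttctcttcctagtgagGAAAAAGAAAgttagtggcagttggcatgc
IFI44L, chr1:78620355-78620404, plus strand: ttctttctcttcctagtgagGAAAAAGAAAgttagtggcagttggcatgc
IFITM3, chr11:320866-320932, minus strand: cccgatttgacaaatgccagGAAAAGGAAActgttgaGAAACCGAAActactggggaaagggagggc
IFIT1, which binds viral RNA, IFI27, a mitochondrial protein, and IFI44L had log2 fold changes of -2.48, -2.81 and -3.47. BST2, a membrane tether of virions, with 2 overlapping matches, had the lowest log2 fold change of the list (-4.09, from 4.69, 4.4 and 4.94 to 0.207, 0.356 and 0.258 CPM). IFITM3, with 2 separate matches, read 369, 313 and 324 and 335, 369 and 330.0 CPM (0.04 ± 0.10, adjusted p = 0.74). Over all 293 genes that hold it, the median log2 fold change was -0.06 and 32.8% fell, against 31.7% of all protein-coding genes tested. In the genes that fell by at least 2-fold it was found in 30 of 413 (7.3%).

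Upstream of the effectors the picture was less uniform. Of 29 interferon sensing and signalling genes tested, 16 fell and 3 rose, and the median was -0.24. DHX58, a helper of the RNA sensors, fell with a log2 fold change of -2.37, STING1, the adaptor of the DNA sensor cGAS, with -1.60, and STAT2, a subunit of the interferon-activated factor ISGF3, with -1.16. STAT2 had 72.9, 69.2 and 69.9 CPM in vehicle and 31.2, 32.8 and 30.8 with FOLFIRINOX. IRF9 and IRF1 had log2 fold changes of -0.21 and -0.11 and did not pass. CGAS itself rose (0.58), as did JAK2 (0.62) and the receptor chain IFNGR1 (0.67).

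Antigen presentation fell in E5 cells and tended the other way in control cells. Of 30 genes, 24 fell and 2 rose in E5 cells, with a median of -0.53, while 7 fell and 14 rose in control cells, with a median of 0.25. The response was lower in E5 cells for 14 and higher for 1. Of all genes 27.3% fell and 25.0% rose in E5 cells, and the response of 12.4% was lower and of 13.3% higher. HLA-B, a heavy chain of class I molecules, had 321, 311 and 298 CPM in E5 vehicle and 187, 189 and 184 with FOLFIRINOX (-0.73). In control cells it had 32, 28.4 and 36.6 and 70.5, 76.2 and 74.9 (1.20), and the difference was -1.93 ± 0.11 (adjusted p = 7.4e-09). The groups thus moved towards each other, and the E5 drug libraries still read above the control drug libraries. HLA-E (-0.62 in E5, 0.40 in control cells) and HLA-C (-0.54 and 0.29) showed the same opposite signs, as did TAP1, of the peptide transporter (-0.25 and 0.38), whose fall in E5 cells did not pass on log2(FPKM + 0.1). B2M, the light chain of class I, read 819 ± 30.1 and 801 ± 55.3 CPM in E5 cells and did not pass (-0.03). HLA genes share reads with each other, so their individual values are uncertain.

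**Figure D2:**
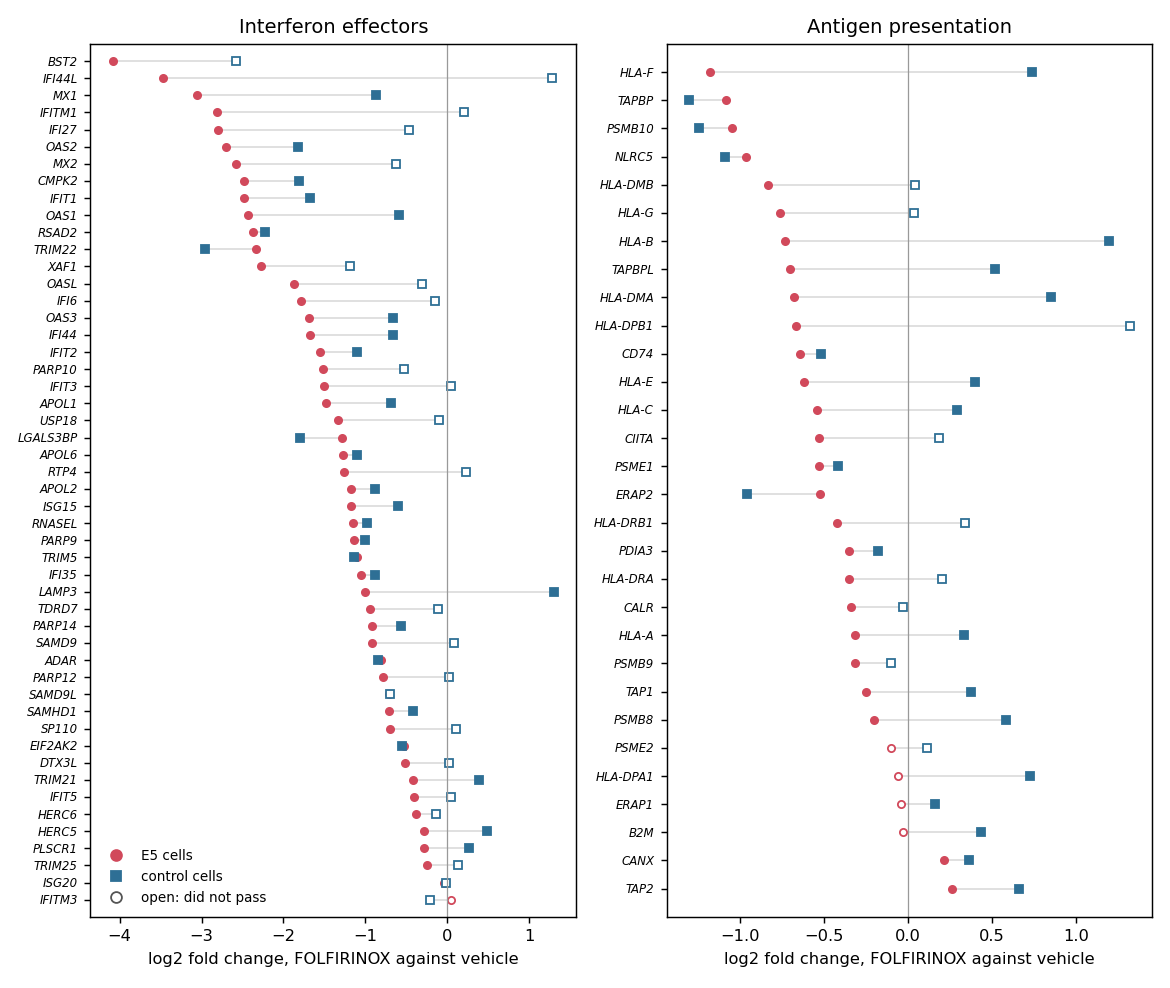
Log2 fold change of each interferon effector and antigen presentation gene with FOLFIRINOX, with E5 cells as circles, control cells as squares and open symbols where the test was not passed. In E5 cells 48 of 50 effectors and 24 of 30 presentation genes fell, while in control cells 14 of the presentation genes rose.

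The guanylate-binding proteins, which interferon gamma induces, fell for 4 of 5 tested, among them GBP4, at 112, 107 and 116 CPM in vehicle and 42.7, 39.5 and 41.5 with FOLFIRINOX (-1.44). Ligands for immune receptors fell for 9 of 17 and rose for 4, beside 27.3% and 25.0% of all genes. LGALS9, a galectin that binds the checkpoint receptor TIM-3, went from 13.9, 12.6 and 12 to 2.89, 2.99 and 3.09 CPM (-2.09), and CD276, a B7 family protein, from 39.1 ± 4.62 to 21.5 ± 0.47 (-0.85). CD274, which encodes PD-L1, rose from 6.29, 6.16 and 7.92 to 10.7, 10.6 and 9.66 CPM (0.60 ± 0.12), and CD47, which blocks uptake by macrophages, rose with 0.31. The rise of CD274 was smaller than in control cells (difference -0.76, adjusted p = 0.0036), and in E5 cells it did not pass on log2(FPKM + 0.1). MICA and ULBP3, ligands of the killer cell receptor NKG2D, fell with -0.85 and -0.83.

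Sterol synthesis fell along most of the pathway. Of 20 cholesterol synthesis genes 17 fell and none rose, with a median of -0.85 beside -0.78 in control cells, and the response differed between the cells for 5 (3 higher, 2 lower in E5), a share near the 25.7% of all genes. LSS, the cyclase that closes the sterol rings, went from 153, 139.5 and 131 to 53.8, 55 and 50.7 CPM (-1.41). The libraries of the 2 groups did not overlap. Only PMVK, CYP51A1 and TM7SF2 did not pass.

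The regulators of the pathway fell too, for 9 of 14 tested, with NPC1, which exports cholesterol from lysosomes, the only one to rise (0.45). SREBF1 and SREBF2, the genes of the SREBP factors, fell from 185 ± 18.5 to 43.1 ± 3.86 CPM (-2.09) and from 172 ± 10.1 to 52.8 ± 3.32 (-1.71). Both falls were larger in control cells, by 0.79 and 0.57 on the log2 scale (adjusted p = 0.0018 and 0.0018), and neither difference passed on log2(FPKM + 0.1). The sterol element TCACNCCAC was found in 1 of 13 promoters of these regulators, in SREBF2, and in none of 15 of the cholesterol and 18 of the fatty acid list, against 1.0% of all promoters. The match in SREBF2 is shown because the gene encodes the factor that reads the element.
SREBF2, chr22:41832952-41833000, plus strand: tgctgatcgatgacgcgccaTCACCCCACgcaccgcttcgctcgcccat
ABCA1, which exports sterols, and NCEH1, which frees stored cholesterol, rose with 0.58 and 0.75.

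Fatty acid synthesis and desaturation fell for 14 of 19 genes tested, with a median of -0.7 in E5 and -0.71 in control cells. FASN, the fatty acid synthase, had 482, 418 and 404 CPM in vehicle and 158, 156 and 127 with FOLFIRINOX (-1.56), and ACLY, which makes the acetyl-CoA for it, 498, 482 and 469.5 and 262, 255 and 226 (-0.96). ACACA, the carboxylase at the entry of the pathway, fell with -0.99, less than in control cells by 0.61 (adjusted p = 0.0014). ELOVL7, an elongase, was the only member to rise (0.68). Of 14 genes of fatty acid oxidation 6 fell, among them the dehydrogenase ACADS (-1.65) and the carnitine transferase CPT2 (-0.97), and none rose.

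The chaperones of the ER fell for 16 of 21 genes, with a median of -0.44 against -0.25 in control cells. PDIA4, a disulfide isomerase, had 369, 346 and 344 CPM in vehicle and 211, 210.5 and 202 with FOLFIRINOX (-0.76), and HSP90B1, the HSP90 of the ER, 718, 882 and 837 and 501, 525 and 617 (-0.57). CANX, the lectin chaperone calnexin, was the only member to rise, from 1556, 1597 and 1577 to 1824, 1870.0 and 1779 CPM (0.21 ± 0.05). The response was lower in E5 than in control cells for 6 and higher for none, but lower for 10 on log2(FPKM + 0.1), and lower for 8 and higher for 2 once the leading axis of spread within groups was a covariate. That axis was computed from these same counts, and more genes were called with it over all genes. XBP1, the factor spliced by the stress sensor IRE1, fell in E5 cells (-0.69) and rose in control cells (0.26), a difference of -0.95 (adjusted p = 2.1e-05). The stress and degradation genes fell for 13 of 21 tested and rose for 3. VCP, the unfoldase that pulls proteins out of the ER, went from 681, 666 and 649 to 353, 356 and 323 CPM (-0.95).

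The ER stress element, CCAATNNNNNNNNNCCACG on either strand, was in 5 of 20 chaperone promoters (25.0%), against 0.1% of all (14 genes). It is shown for 3 genes that fell and for CANX, which rose with the same element.
HSPA5, chr9:125241371-125241429, minus strand: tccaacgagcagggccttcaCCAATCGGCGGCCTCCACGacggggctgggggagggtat
CRELD2, chr22:49918534-49918592, plus strand: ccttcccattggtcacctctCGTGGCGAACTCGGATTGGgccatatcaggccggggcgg
XBP1, chr22:28800583-28800641, minus strand: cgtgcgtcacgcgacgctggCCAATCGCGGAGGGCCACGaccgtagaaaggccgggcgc
CANX, chr5:179698758-179698816, plus strand: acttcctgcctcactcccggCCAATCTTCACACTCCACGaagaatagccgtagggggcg
HSPA5 encodes BiP, the master chaperone of the ER (log2 fold change -1.03), and CRELD2 an ER-stress-induced secretory protein (-1.13). Over the 14 genes with the element the median was -0.25, against -0.04 over all protein-coding genes tested.

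Transport between ER and Golgi fell with the chaperones, for 18 of 25 coat and cargo genes with a median of -0.29. SEC24D, a cargo adaptor of COPII coats, had 77.3, 72 and 72 CPM in vehicle and 30.5, 28.5 and 29.9 with FOLFIRINOX (-1.31). KDELR3, a receptor that returns ER proteins, fell (-1.12) and had 0.09 in control cells, a difference of -1.20 (adjusted p = 4.5e-06). COPB1, a subunit of COPI coats, rose (0.25). By contrast the translocation and glycosylation genes had 15 that did not pass, 7 lower and 4 higher, and their median was -0.02.

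The targets of ATF4, the factor of the integrated stress response, split. Of 18 tested, 9 fell and 6 rose. ATF4 rose from 245, 234 and 231 to 416, 405 and 391 CPM (0.77), more than in control cells by 0.37 (adjusted p = 0.0048), a difference that did not pass on log2(FPKM + 0.1). CEBPB and DDIT3, stress factors of the C/EBP family, rose with 1.15 and 0.85, but DDIT3 by less than in control cells (2.35). ASNS, asparagine synthetase, fell from 1.47, 2.7 and 2.47 to 1.19, 1.07 and 0.386 CPM (-1.37), SESN2, which restrains mTORC1, from 34.1, 27.7 and 25.5 to 13.5, 14.3 and 12.7 (-1.09), and TRIB3, an inhibitor of ATF4, from 24.8 ± 1.87 to 15.8 ± 1.25 (-0.64). Control cells had 0.19 for SESN2 and 0.28 for TRIB3, and the response was lower in E5 cells for 11 of the 18 and higher for 2. The amino acid response element TGATGNAA was in 3 of 17 promoters of the list (17.6%) and in 1.7% of all. Over all 179 genes that hold it the median log2 fold change was 0.02 and 32.4% fell, against 31.7% of all protein-coding genes searched. The element is shown for 2 genes that fell and 1 that rose.
ASNS, chr7:97872449-97872496, minus strand: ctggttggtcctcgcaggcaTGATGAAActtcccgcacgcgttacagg
CHAC1, chr15:40953242-40953289, plus strand: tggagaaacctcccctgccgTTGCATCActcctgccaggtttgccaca
ATF3, chr1:212565196-212565243, plus strand: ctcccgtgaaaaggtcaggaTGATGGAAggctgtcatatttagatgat
CHAC1 encodes an enzyme that degrades glutathione (-2.17) and ATF3 a stress-induced factor (0.55, against 2.41 in control cells).

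Enzymes that feed serine and one-carbon units fell for 14 of 21 tested, with a median of -0.32. PHGDH, which commits glucose carbon to serine, had 106, 96 and 94.3 CPM in vehicle and 35.8, 39 and 35.8 with FOLFIRINOX (-1.42), and SHMT2, the mitochondrial serine hydroxymethyltransferase, 122, 114 and 110.4 and 67.7, 69.7 and 57.8 (-0.82). SLC7A5, which imports large neutral amino acids, fell from 228, 201 and 187 to 78.7, 90.8 and 73.6 CPM (-1.34), while its partner SLC3A2 rose (0.43). Among 20 aminoacyl-tRNA synthetases, which charge tRNAs, 11 fell and 3 rose. The response was lower in E5 than in control cells for 7 and higher for none, as for WARS1 (-0.80 in E5, 0.01 in control cells) and GARS1 (-0.66 and -0.16). These counts became 11 lower with total counts only, 10 lower on log2(FPKM + 0.1), and 12 lower and 2 higher with the axis of spread within groups as a covariate. The element TGATGNAA was in 6 of 16 synthetase promoters (37.5%). Of the 6 genes, MARS1, AARS1, CARS1 and IARS1 fell, IARS1 by only -0.16 and not in the fit on E5 libraries alone, and TARS1 and NARS1 did not pass.

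Genes of ribosome biogenesis rose. Of 40 on the list 31 rose and none fell, with a median of 0.38 in E5 and 0.52 in control cells. NPM1, the nucleolar chaperone nucleophosmin, had 903, 1091 and 1029 CPM in vehicle and 1531, 1459 and 1647 with FOLFIRINOX (0.62). DDX21, a nucleolar helicase, had 547, 624 and 609 and 837, 876 and 939.9 (0.57), and DDX10, another, rose from 59.6, 66.8 and 65.5 to 112, 108 and 117 (0.81). DKC1, NOP56 and NOP58, core proteins of small nucleolar ribonucleoproteins, rose with 0.65, 0.67 and 0.61. Of the RNA polymerase I and III genes 15 of 26 rose and 2 fell. TAF1A, a subunit of the selectivity factor of polymerase I, rose from 13.7, 18.5 and 15.8 to 39, 39.2 and 43 CPM (1.31), and UBTF, which activates ribosomal DNA, fell (-0.41).

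The E-box CACGTG, the site read by MYC and related factors, was in 14 of 33 ribosome biogenesis promoters (42.4%) and 10.1% of all promoters. Over all 1038 genes with the E-box the median log2 fold change was -0.01 and 27.9% rose, against 24.8% of all protein-coding genes searched. The E-box is shown for UTP4, which rose, UTP20, which did not pass, and ARRDC4, an arrestin-like relative of TXNIP.
UTP4, chr16:69132613-69132648, plus strand: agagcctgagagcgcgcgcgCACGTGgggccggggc
UTP20, chr12:101280075-101280104, plus strand: gcgccgttcttttttccgtcCACGTGaccc
ARRDC4, chr15:97960473-97960518, plus strand: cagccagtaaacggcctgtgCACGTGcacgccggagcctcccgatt
UTP4 and UTP20 act in the small subunit processome. UTP4 rose from 103, 95.6 and 96.8 to 171, 177 and 158 CPM (0.78), and UTP20 read 138, 149.9 and 153 and 154, 163 and 154 (0.10, adjusted p = 0.32). ARRDC4, which limits glucose uptake, rose from 12.9, 15.3 and 13 to 53.9, 53.6 and 55.2 CPM (1.97), by less than in control cells (3.33).

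The ribosomal protein genes were among the lists where E5 cells and control cells parted. Of 56 tested, 34 rose and 5 fell in E5 cells, with a median of 0.27. In control cells 9 rose and 26 fell, with a median of -0.15, which becomes -0.01 with total counts only and 0.04 on log2(FPKM + 0.1). The response was higher in E5 cells for 44 and lower for 1, for 34 and 1 with total counts only, and for 26 and 1 on log2(FPKM + 0.1). RPS6, the substrate of S6 kinase, had 1127, 1130.0 and 1088 CPM in E5 vehicle and 1538, 1604 and 1640.0 with FOLFIRINOX (0.52), and 1361, 1302 and 1459 and 1471, 1539 and 1404 in control cells (0.10). RPL24 rose with 0.60. RPL3 fell in both, with -0.72 in E5 and -1.30 in control cells. Many processed pseudogenes match these genes, so reads that match several places cannot be assigned to one and each value is uncertain.

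The hosts of small nucleolar RNAs rose for 16 of 18 tested, with medians of 0.74 in E5 and 0.73 in control cells. GAS5 had 132, 131 and 131 CPM in vehicle and 296, 291 and 294 with FOLFIRINOX (1.16 ± 0.05, adjusted p = 3.8e-11), SNHG1 124, 127 and 124 and 299, 301 and 314 (1.29), and SNHG7 15.1, 17 and 14.9 and 41.5, 43.1 and 40.7 (1.40). These are spliced noncoding RNAs whose introns carry the small RNAs, and all drug libraries lay above all vehicle libraries. SNHG3 and SNHG29 rose in E5 cells (0.52 and 0.55) with -0.26 and -0.09 in control cells, and both differences passed. Among translation factors 14 of 26 rose, as EIF5 (0.73) and EEF1B2 (0.66), and 5 fell, as EIF4G1, the scaffold of the cap-binding complex, from 1119, 1062 and 1045 to 735, 727 and 622 CPM (-0.63).

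Replication-dependent histone genes rose for 17 of 29 tested of 52 listed and fell for none, with medians of 0.61 in E5 and 1.12 in control cells. Their messages normally lack a poly(A) tail, and the libraries were made for mRNA, so the counts report what such a kit captures. H2BC12 rose from 43.1, 39.4 and 38.8 to 65.2, 59.1 and 59.9 CPM (0.61), and H4C8 from 16.7, 15.8 and 14.5 to 46.1, 45.3 and 49.4 (1.59). The rise was smaller than in control cells for 11 genes and larger for none. The histone variants outside the S phase set went the other way, with 7 of 12 lower and 2 higher. H2AZ2 went from 801, 872 and 845 to 637, 596 and 627 CPM (-0.44). Near-identical histone copies make single values uncertain.

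**Figure D3:**
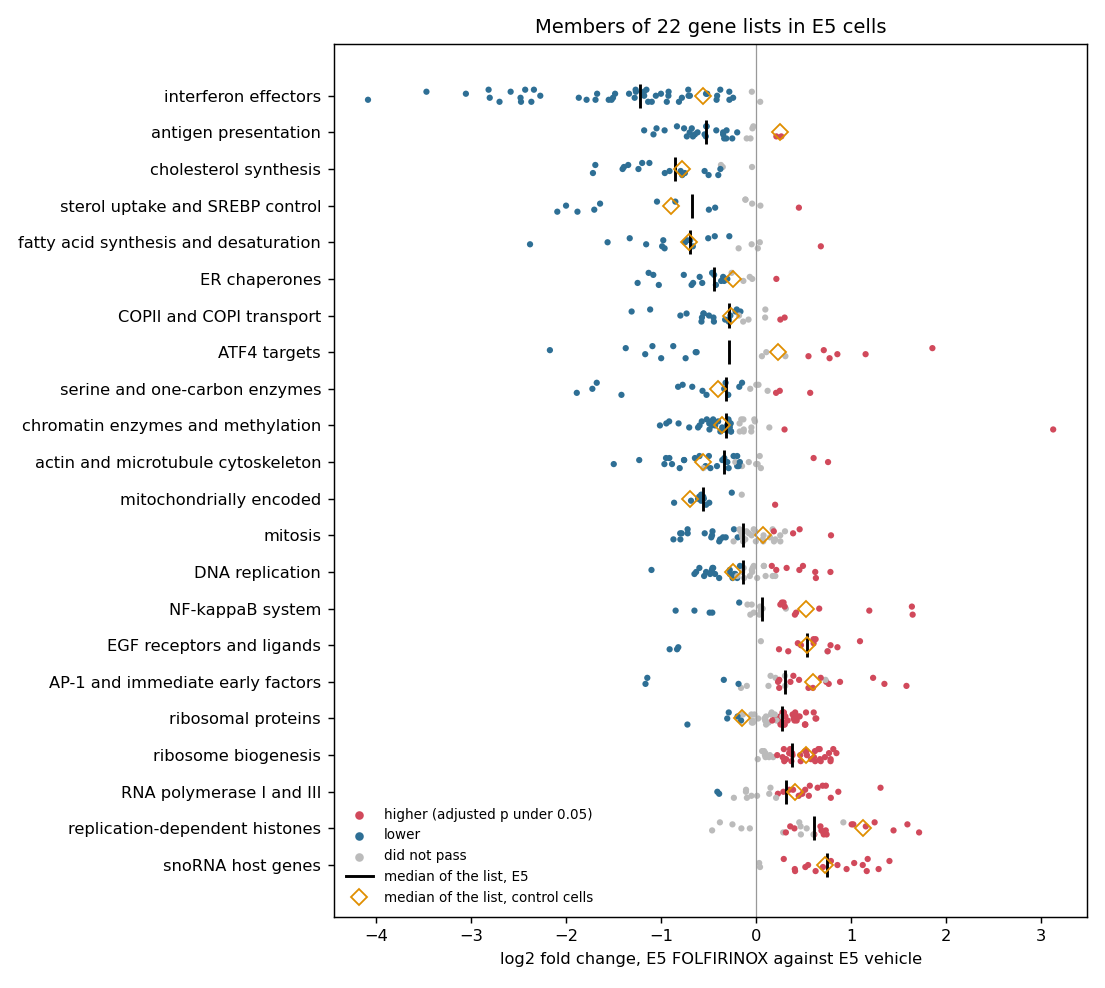
Log2 fold change with FOLFIRINOX in E5 cells for the tested members of 22 gene lists, 1 point per gene, with the list median as a black line and the median in control cells as an open diamond. The medians of the interferon effector, cholesterol and ER chaperone lists lie below 0 and those of ribosome biogenesis and snoRNA hosts above it, and for antigen presentation and ribosomal proteins the E5 and control medians lie on opposite sides of 0.

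Cell cycle genes moved little as groups. Of 42 DNA replication genes 19 fell and 8 rose, beside 27.3% and 25.0% of all genes, with a median of -0.14. MCM7, of the replicative helicase, fell (-0.60, 408, 402 and 378 to 269, 274 and 241 CPM), and PRIM1, the primase, rose (0.78, 22.1, 26.2 and 24.9 to 39.8, 43.7 and 43.5). Of 43 mitosis genes 16 fell, 4 rose and 23 did not pass. The response was lower than in control cells for 15 and higher for none, beside 12.4% and 13.3% of all genes. Once the leading axis of spread within groups was a covariate, the response was higher for 8 and lower for 24. PLK1, the polo-like kinase, had 115, 107 and 103 CPM in vehicle and 66.9, 63.5 and 56.2 with FOLFIRINOX (-0.80, control -0.37), and KIF20A, a kinesin of cytokinesis, 415, 424 and 412 and 255, 234 and 229 (-0.80, control -0.16). Groups of libraries did not overlap for either gene. TOP2A and CDK1 had 0.25 and 0.19 and did not pass, though TOP2A passed with total counts only and in the fit on E5 libraries alone, and both passed with the axis covariate. CCND1, the cyclin of early G1, rose from 334 ± 11.2 to 480.4 ± 26.1 CPM (0.52). CDKN1A, the cell cycle inhibitor p21, read 48.6, 46.3 and 46.2 and 49, 56.8 and 50.8 CPM in E5 cells (0.15, adjusted p = 0.17) and rose in control cells (0.69), and the difference passed (-0.54, adjusted p = 0.0055).

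Genes of the damage response moved one by one. TP53BP1, which shields broken ends from resection, fell from 172, 173 and 186 to 75.8, 80.7 and 70.0 CPM (-1.23 ± 0.07, adjusted p = 1.8e-09). XRCC2, which acts in homologous recombination, rose from 58.3, 69.6 and 70.2 to 139, 144 and 166 (1.17), and POLK, a polymerase that copies past adducts, from 30.5, 45.1 and 41.7 to 67.7, 85.8 and 105 (1.12). RAD18, the ligase that marks PCNA for bypass, and USP1, which removes that mark, rose with 0.85 and 0.80. Of 14 translesion genes 6 rose and 1 fell, and of 34 Fanconi and recombination genes 11 rose and 6 fell, beside 25.0% and 27.3% of all genes, with SLX4, the nuclease scaffold, among the falls (-0.98). With the axis covariate, which raised the number of calls over all genes, 18 of the Fanconi and recombination genes rose, and on log2(FPKM + 0.1) 3 fell. For the targets of the drugs, TOP1 read 300.3, 328 and 328 CPM in vehicle and 313, 335 and 378 with FOLFIRINOX (0.10, adjusted p = 0.26, though it passed with total counts only) and TYMS, thymidylate synthase, 187, 196 and 196 and 212, 192 and 194 (0.05, adjusted p = 0.52). TDP1, which removes trapped topoisomerase I, fell (-0.52). DPYD, which breaks down fluorouracil, had -0.01 in E5 cells, which did not pass, and fell in control cells (-1.36), a difference of 1.35 (adjusted p = 1.9e-07). UPP1, which can activate fluorouracil, rose (0.55).

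Fewer inflammatory genes rose in E5 than in control cells, as did fewer of all genes tested (25.0% against 32.6%). Of 24 genes of the NF-kappaB system 10 rose and 5 fell, where 17 rose and 4 fell in control cells, with medians of 0.06 in E5 and 0.53 in control cells. The response was lower in E5 cells for 14 and higher for 3, beside 12.4% and 13.3% of all genes. TRAF1, a signalling adaptor, rose from 10.2, 10.4 and 12 to 33.8, 36.8 and 31.4 CPM (1.64) and by 3.89 in control cells, and RELB, a subunit of the alternative pathway, from 22.3 ± 1.67 to 34.9 ± 3.48 (0.66 and 2.52). SOD2 was 1 of the 3 with the larger response in E5 cells. Of 11 chemokine and receptor genes tested, 4 rose and 3 fell in E5 cells, not far from the shares of all genes (25.0% and 27.3%). In control cells 10 of them rose, with a median of 2.01. CCL5, which draws T cells, fell from 14.9, 14.8 and 16.9 to 4.44, 4.84 and 4.89 CPM in E5 cells (-1.72) and rose from 0.667, 0.43 and 0.629 to 1.16, 1.74 and 1.28 in control cells (1.39). CXCL1 read 8.17, 6.6 and 8.17 and 7.03, 5.77 and 7.47 CPM in E5 cells (-0.15, adjusted p = 0.47) and rose in control cells (2.01). CXCL8, which draws neutrophils, rose in both (0.56 and 3.08). TSLP, an epithelial cytokine, rose from 1.47, 1.51 and 1.45 to 5.48, 5.27 and 6.24 CPM (1.93), and IL6ST, the shared receptor of the interleukin-6 family, from 473 ± 78.1 to 746 ± 86.8 (0.65).

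Genes downstream of growth factor signalling rose more often than they fell. Of 27 AP-1 and immediate early factors 15 rose and 4 fell, and of 23 feedback genes of the ERK pathway 16 rose and 3 fell, beside 25.0% and 27.3% of all genes. KLF4 rose from 10.7, 10.1 and 10.9 to 25.4, 24.5 and 24.1 CPM (1.23), FOSL2, a FOS family subunit of AP-1, from 95.9, 89.9 and 90.0 to 161, 154 and 144 (0.74), and BATF3 from 3.08, 3.14 and 1.79 to 7.6, 7.41 and 9.01 (1.58). DUSP10 and DUSP5, phosphatases of MAP kinases, rose with 1.33 and 1.05, and SPRY4 and ETV5 fell with -0.69 and -0.63. Of 16 EGF receptor and ligand genes 11 rose. HBEGF rose from 7.1, 5.28 and 5.7 to 12, 12.8 and 12.8 CPM (1.09) and NRG1, neuregulin, from 34.5, 33.9 and 35 to 60.5, 65.4 and 61 (0.85). EGFR rose (0.34), and its partner ERBB2 fell (-0.83). The AP-1 element TGANTCA was in 41 of 362 promoters of genes that rose by at least 2-fold (11.3%) and in 4.5% of all. In the narrower stretch from 100 bases before to 50 after the start the shares were 5.8% and 2.2%. In the wider stretch 128 of 2557 promoters of all genes that rose held the element (5.0%). Over the 467 genes with it the median log2 fold change was 0.02 and 27.4% rose, against 24.8% of all 10314 protein-coding genes searched.

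Structural genes fell. Of 35 actin and microtubule genes 25 fell and 2 rose, with medians of -0.34 in E5 and -0.56 in control cells. ACTB, beta-actin, had 3416, 3109 and 2927 CPM in vehicle and 1807, 1842 and 1758 with FOLFIRINOX (-0.81), and in control cells it fell further (-1.97), a difference of 1.16 (adjusted p = 1.7e-07). VCL, vinculin of focal adhesions, went from 703, 688 and 678 to 467, 460.4 and 395 CPM (-0.65), and TPM1, a tropomyosin, rose (0.60). Tubulin and actin genes have close copies, so single values are uncertain. Of 30 laminin, integrin and adhesion genes 15 fell and 4 rose, beside 27.3% and 25.0% of all genes. ITGB8, which activates latent TGF-beta, fell from 72.6, 92.8 and 94.9 to 26.5, 28.4 and 37 CPM (-1.51), and SPARC, a matrix glycoprotein, from 11.1, 9.99 and 10.6 to 3.41, 3.28 and 2.96 (-1.70). Of 25 collagen and matrix enzyme genes 12 fell and 4 rose, COL5A2 from 505 ± 19.1 to 281 ± 11.4 CPM (-0.84).

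In the Hedgehog pathway, PTCH1, receptor and target gene at once, fell from 92.4, 92.6 and 87.8 to 23.8, 26 and 22.6 CPM (-1.92), GLI1, the target factor, from 24.4, 24.1 and 23.9 to 9.41, 10.5 and 9.08 (-1.32), and the signal transducer SMO from 25.4, 26.7 and 22.9 to 9.92, 10.4 and 9.98 (-1.31). The ligand SHH rose (0.93, 7.5, 7.73 and 6.38 to 13.4, 14.4 and 13.5 CPM), though not on log2(FPKM + 0.1). In all, 6 of 11 tested fell and 2 rose, and the falls were smaller than in control cells, whose median was -1.49 against -0.71. The difference was higher for 7 and lower for 1, which are 2 and 0 on log2(FPKM + 0.1). HEY1, a Notch target, rose from 0.268, 0.0629 and 0.255 to 0.982, 0.712 and 0.966 CPM (2.33). KCNQ5, a potassium channel, rose in E5 cells from 10.0, 11 and 10.6 to 28, 31.9 and 27 (1.44), more than in control cells (0.26) though not by the test on log2(FPKM + 0.1), and EPHB2, an ephrin receptor, from 29.5, 27.1 and 26 to 60.6, 58.4 and 51.3 (1.05) where it fell in control cells (-0.29). GAP43, a protein of nerve growth cones, rose from 0.536, 0.189 and 0.425 to 2.74, 3.42 and 3.22 CPM (3.14). SEMA3F, a repelling guidance cue, fell from 4.02, 3.02 and 3.06 to 0.258, 0.214 and 0.515 (-3.29).

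Chromatin enzymes fell for 29 of 42 (17 on log2(FPKM + 0.1)) and rose for 2, with medians of -0.32 in E5 and -0.36 in control cells. HDAC6, a cytoplasmic deacetylase, went from 86.4, 73.7 and 76 to 43.7, 43 and 37.7 CPM (-0.92), and ARID1A, a subunit of BAF remodellers, from 226, 205 and 218 to 147, 155 and 134 (-0.57). The deacetylases HDAC9 and HDAC2 rose (3.12 and 0.30), HDAC9 from 9.78, 12.3 and 12.8 to 99.6, 106 and 104 CPM. LMNB1, a lamin lost in senescence, fell from 267, 293 and 279.5 to 144, 141 and 144 (-0.97). Of the 13 genes encoded by mitochondria 11 fell and 1 rose, MT-CO2, a subunit of cytochrome oxidase, from 6308, 5230.0 and 5757 to 3188, 3222 and 3084 CPM (-0.86) and MT-ND1 the other way (0.20), with overlapping libraries and no call without vehicle replicate 2. The nuclear respiratory chain had 8 higher and 11 lower of 45, not above the shares of all genes (25.0% and 27.3%), and 26 did not pass. Of 30 genes of mitochondrial transcription and translation 16 rose. IDH1 and IDH2, isocitrate dehydrogenases of cytosol and mitochondria, fell with -1.49 and -1.84, and 12 of 20 TCA cycle genes fell. Of 25 NRF2 targets 11 fell and 5 rose. The response was higher than in control cells for 14 and lower for 1, or 9 and 1 on log2(FPKM + 0.1), beside 13.3% and 12.4% of all genes. NQO1, a quinone reductase, had 1168, 1174 and 1206 CPM in vehicle and 1033, 933 and 971 with FOLFIRINOX (-0.27, not passed on log2(FPKM + 0.1)), and -1.16 in control cells. FTL and FTH1, the ferritin chains, rose (0.67 and 0.39), as did SQSTM1, the autophagy receptor p62, from 1622, 1515 and 1467 to 2939, 2927 and 2750.0 CPM (0.90).

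By class of gene, long noncoding RNAs rose for 643 of 2083 (30.9%) and fell for 177 (8.5%), with a median of 0.32, while of protein-coding genes 24.6% rose and 31.7% fell (median -0.04). LINC00702 rose from 0.268, 0.126 and 0 to 1.65, 2.21 and 1.93 CPM (3.97), and GAS6-AS1, antisense to GAS6, fell from 2.01, 2.01 and 2.13 to 0.103, 0.285 and 0.0644 (-3.76), beside GAS6 (-1.52). MTCO2P12, a nuclear copy of mitochondrial MT-CO2 whose reads may be misplaced, read 1.07, 8.55 and 9.62 CPM in vehicle and 0.724, 0.57 and 0.579 with FOLFIRINOX, with 1 vehicle library well under the others. By genomic span, the decile of genes of greatest span (161.5 to 2305 kb) had a median of 0.05 in E5 cells and -0.16 in control cells. Among protein-coding genes of at least 5 CPM the corresponding medians of the longest decile were -0.04 and -0.29. By chromosome the medians ran from -0.16 on chromosome 22, where 40.2% of genes fell, to 0.15 on chromosome 5.

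Of the changed genes 16 had no read in one E5 group and were named for that reason. Their folds are lower bounds against a floor of 3 counts over the group. These bounds leave out counting error in the other group. GRM8, a glutamate receptor, had 0 counts in vehicle and 31 with FOLFIRINOX, at least 7.78-fold higher, and ANKRD1, a target of YAP, 0 and 17, at least 4.27-fold higher. FOXQ1, a forkhead factor, and MYCT1 each had 0 and 11 counts, at least 2.76-fold higher. OTOF, otoferlin, had 7 counts in vehicle and 0 with FOLFIRINOX, at least 3.1-fold lower. On log2(FPKM + 1) FOXQ1, MYCT1 and OTOF did not pass. The filter on low counts used all 4 groups, so genes this low in E5 cells could pass it through control libraries. FOXQ1 read at most 0.322 CPM in an E5 library and 2.44, 2.43 and 2.51 in control FOLFIRINOX. ANKRD1 read at most 0.499 against 1.16, 1.44 and 1.67 there, and MYCT1 at most 0.258 against 1.16, 0.744 and 0.892. OTOF read at most 0.251 in E5 cells against 1.56, 1.53 and 1.43 in control vehicle.

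Across all genes the E5 and control responses shared their direction more often than not. Of the genes that rose in E5 cells 76.5% also rose in control cells, and of those that fell 76.3% also fell, while 58.7% and 63.7% of the control calls were also made in E5 cells. The log2 fold changes correlated across the 15636 genes with r = 0.726, given as a description, since genes are not independent replicates. The E5 and control comparisons share no library. Opposite calls were made for 287 genes, 131 higher in E5 and lower in control cells and 156 the other way. The test of the difference was passed for all 287, which follows almost by itself from opposite calls in the same fit. C1S, a protease of the first complement component, rose in E5 cells from 8.57, 7.79 and 8.09 to 17.7, 16.4 and 15.5 CPM (1.03) and fell in control cells from 7.67, 7.59 and 8.7 to 2.19, 2.48 and 1.9 (-1.86), a difference of 2.90 ± 0.18 (adjusted p = 1.2e-08). PADI2, which converts arginine to citrulline, fell in both, from 246, 232 and 232 to 63.8, 62.4 and 57 CPM in E5 cells (-1.95) and from 461, 455 and 482 to 22.1, 21.1 and 17.5 in control cells (-4.54).

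For some genes E5 and control cells started apart and ended closer to each other. SCG2, a secretogranin of dense-core vesicles, read 34.1, 34.1 and 34.2 and 38, 34.8 and 39.1 CPM in E5 cells, which did not pass (0.13, adjusted p = 0.12), and in control cells fell from 166, 171 and 174 to 37.8, 38.5 and 39.1 (-2.15), to the E5 level. CNTN1, a neural adhesion protein, did the reverse. It rose in E5 cells from 0.402, 1.01 and 0.17 to 3.31, 3.77 and 4.12 CPM (2.63), while control cells had 5, 5.16 and 5.21 and 4.24, 3.32 and 3.46. TGFA, a ligand of EGFR, rose from 8.57, 10.9 and 10.4 to 15.9, 16.1 and 14.7 in E5 cells (0.62) and from 0.445, 0.812 and 0.629 to 8.87, 8.53 and 8.08 in control cells (3.63). PIR, an iron-binding nuclear protein and NRF2 target, moved apart on the log2 scale instead, with 169, 169 and 152 and 68.8, 67.5 and 67.8 CPM in E5 cells (-1.26) and 93.8, 93.2 and 101 and 8.1, 8.63 and 8.47 in control cells (-3.50).

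**Figure D4:**
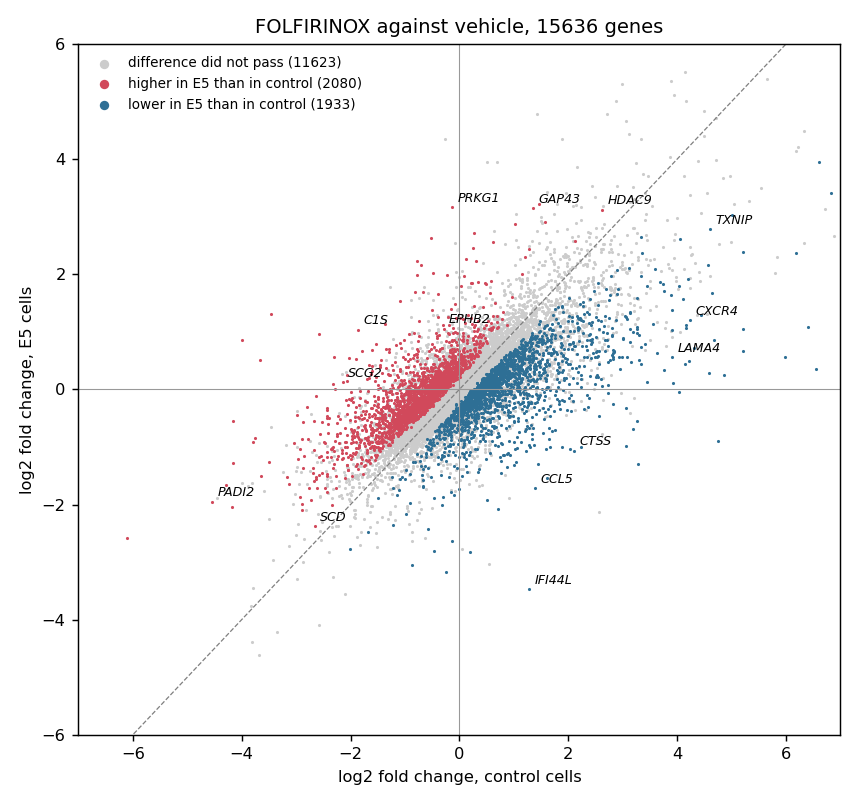
Log2 fold change with FOLFIRINOX in E5 cells (vertical) against control cells (horizontal) for 15636 genes, with a dashed line at equal responses, coloured by whether the difference between the 2 responses passed the test and in which direction. The cloud runs from lower left to upper right (r = 0.726), and 2 genes fall outside the axes.

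Markers of other cell types were low in E5 cells. The summed level of 17 immune cell markers was 1.21 to 1.53 CPM in E5 vehicle and 1.19 to 1.8 with FOLFIRINOX, with CD3D, CD3E, MS4A1 and NKG7 among those without a read in any E5 library. In control cells the sum was 49.9 to 55.9 and 12.4 to 16.6 CPM, nearly all of it PTPRC, the phosphatase CD45, at 51.9 and 11.4 CPM. The sum of 12 fibroblast and endothelial markers was 24.9 to 25.8 CPM in E5 vehicle and 13.8 to 15.6 with FOLFIRINOX, with 4 of 7 tested lower and 1 higher, among them COL1A1 (-0.71) and CDH5, VE-cadherin, which went from 5.49, 5.53 and 5.62 to 1.34, 1.21 and 0.966 CPM (-2.22), while DCN had no read. The sum of 10 acinar and islet markers was 0.17 to 0.691 CPM in vehicle and 0.257 to 0.362 with FOLFIRINOX, and none of them passed the filter on low counts. Of the immune markers 3 were tested and none passed. The part of such genes in the other results was not tested.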

How the data were processed

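RNA from E5 and control KP4 cells, given vehicle or FOLFIRINOX for 96 h, was made into mRNA libraries with a KAPA kit, per the labels' protocols. Per the submitters' processing notes, reads were trimmed with Trimmomatic and aligned to GRCh38 with STAR 2.5.1b. The authors deposited a table of stranded gene counts, a table of FPKM values, and a table of rlog values (regularised log2 counts), with 3 numbered columns for each of the 4 groups. The labels do not say whether these are separate cultures, so p-values measure only the spread between columns, which may be technical. No value column was without a sample (0 columns left out).

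The counts of all 12 libraries were fitted together with edgeR 4.0.16 (group means, TMM scaling, filterByExpr, quasi-likelihood F test) in R 4.3.3. P-values were adjusted by Benjamini-Hochberg over all 15636 genes tested, with a threshold of 0.05. The E5 response is E5 FOLFIRINOX minus E5 vehicle, and the difference is the E5 minus the control response. The SE of a log2 fold change is its size divided by the square root of F. The common biological coefficient of variation, 1 value for all genes, was 7.37%. The fit was tested on simulated data. The deposited FPKM values entered only as alternatives, as log2(FPKM + 1) and log2(FPKM + 0.1) with limma 3.58.1, as did the deposited rlog values, and DESeq2 1.42.0 was another alternative.

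Promoters, 250 bases before to 50 after the start, came from RefSeq on GRCh38.p14, and 10314 of the 12650 protein-coding genes tested matched by symbol. Of the 40 genes whose windows were extracted, 32 had the bases just after that start in a GENCODE v29 transcript of the gene. The single most spread direction within groups held 47.9% of the variance within groups. The genes named are the 25 highest and 25 lowest protein-coding log2 fold changes of at least 5 CPM, the 10 most abundant genes changed at least 2-fold in each direction, the 8 highest and 8 lowest of other biotypes, the 12 largest differences each way, genes with 0 counts in 1 E5 group, and members of the lists. The markers and genes beside a named one (GAS6) were added after their values were seen. The members and lists were chosen with earlier results of these data known. CPM values are not per length, so levels are not compared between genes. Some genes are not reported here.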

Additional observations from a re-analysis of the deposited data

Results flagged for a closer look

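The test of the difference between the E5 and the control response (edgeR's interaction term, Benjamini-Hochberg over all 15636 genes) was passed by 2080 genes with a higher and 1933 with a lower log2 fold change in E5 cells. The genes with the 12 largest differences each way follow, as E5 minus control log2 fold change.

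Higher in E5 cells were PRKG1, a cGMP-dependent kinase (3.30), CNTN1 (3.15), C1S (2.90), SNED1 (2.88), PADI2 (2.59), FSTL5 (2.5), CACNG4, a calcium channel subunit (2.5), C1R, the partner protease of C1S (2.42), P2RY6, a nucleotide receptor (2.32), SCG2 (2.27), PIR (2.24) and XIRP2 (2.22). PRKG1 rose in E5 cells from 0.67, 0.691 and 0.596 to 4.6, 5.91 and 7.47 CPM and read 6, 6.01 and 4.23 and 4.24, 4.07 and 6.08 in control cells. CACNG4, P2RY6 and SCG2 did not pass in E5 cells (-0.30, 0.26 and 0.13) and had -2.80, -2.06 and -2.15 in control cells. C1R passed in E5 cells (adjusted p = 0.038) with overlapping libraries (4.96, 5.53 and 4.68 and 9.51, 6.77 and 5.41 CPM). That call was lost with DESeq2, on log2(FPKM + 0.1), with the replicate block, and without E5 FOLFIRINOX replicate 1 or any single E5 vehicle library.

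Lower in E5 cells were IFI44L (-4.75), MSC (-4.55), NRXN3 (-4.31), LIPG, an endothelial lipase (-3.82), LAMA4, a laminin chain (-3.35), CTSS, a lysosomal protease (-3.16), CCL5 (-3.11), DACT1 (-3.04), CXCR4, a chemokine receptor (-3.03), IFITM1 (-3.02), TGFA (-3.01) and PLA2G4C (-2.96). IFI44L read 15.9, 11.4 and 15.2 and 0.982, 1.07 and 1.74 CPM in E5 cells and 0.222, 0 and 0.114 and 0.129, 0.0992 and 0.39 in control cells. CTSS read 14.1, 15.3 and 14.9 and 6.82, 6.7 and 7.79 CPM in E5 cells and 0.334, 0.334 and 0.458 and 1.42, 1.59 and 1.84 in control cells. MSC and NRXN3 had no read in control vehicle, so their differences depend on the prior count and have no bound. The differences of LAMA4, MSC, NRXN3, CXCR4 and P2RY6 did not hold on log2(FPKM + 1). On log2(FPKM + 0.1) those of LAMA4, MSC, NRXN3, P2RY6 and IFITM1 did not hold. Some also hung on 1 control library. That of IFI44L did not pass without control FOLFIRINOX replicate 3, nor that of IFITM1 without control FOLFIRINOX replicate 2. MSC lost its difference without replicate 2 of control FOLFIRINOX or of control vehicle. NRXN3 lost it without control FOLFIRINOX replicate 3 or control vehicle replicate 2, and LAMA4 without replicate 3 of either control group.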

How the results depend on the processing

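The E5 counts of changed genes were recomputed with other scalings, filters and tools and without each library. Leaving out 1 library gave 3457 to 4264 genes that rose and 3823 to 4424 that fell (906 to 966 and 641 to 696 at 2-fold), and 1717 to 2236 higher and 1499 to 1838 lower differences. DESeq2 called 3703 higher and 3845 lower and shared 93.4% of the higher and 90.1% of the lower calls, and log2(FPKM + 0.1) shared 83.6% and 62.3%. On FPKM, log2(FPKM + 1) gave 2837 and log2(FPKM + 0.1) 2775 that fell, 814 and 751 higher differences, and 163 and 439 falls of at least 2-fold, with 285 rises of at least 2-fold on log2(FPKM + 1). With rlog values, 91 genes rose and 84 fell by at least 2-fold. The leading axis of spread within groups as a covariate, chosen after seeing the data, gave 3383 higher differences. It was computed from these same counts and takes up spread within groups, so more genes pass with it. It gave 4604 higher and 4926 lower E5 calls, and extra passes with it are no separate evidence. A replicate block gave 3769 higher and 4136 lower E5 calls and 1848 and 1690 differences, which moved none of these counts by over 1.5 times. Deviations of same-numbered libraries correlated with r from -0.508 to 0.431, and 0.416, -0.162 and 0.317 between the 2 E5 groups. Libraries of different number had r from -0.54 to 0.616. The labels do not say whether equal numbers share a culture or batch, and these few correlations cannot decide it. The AP-1 share of 11.3% became 5.8% in the narrower window, and the median of the longest genes 0.05 became -0.04 in protein-coding genes of at least 5 CPM. Signs turned for the differences of MSC, to 0.58 on log2(FPKM + 1) and 0.12 with rlog, of NRXN3, to 0.211 and 0.054, and of LAMA4, to 0.039 with rlog. Of 225 E5 calls of genes named here 209 held under every alternative run in which the gene was tested. Runs whose filter dropped a gene were not counted against it. The cause of these shifts was not tested. Of 4094 recomputed list counts 3872 stayed within 1.5 times. Depth limits genes of few counts, such as those with no read in one group.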

Other observations

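Lysosomal genes fell for 19 of 36 in E5 cells and rose for 5, beside 27.3% and 25.0% of all genes tested. SMPD1, acid sphingomyelinase, had 32.8, 35.6 and 34 CPM in vehicle and 16.2, 14.1 and 14 with FOLFIRINOX (-1.21), further than in control cells (-0.34, adjusted p of the difference = 0.0011), while CTSL, a lysosomal cysteine protease, rose from 162, 154 and 151 to 264, 267 and 262 (0.77). Aldehyde and aldo-keto enzymes fell for 8 of 14 tested and rose for 1. ALDH4A1, of proline breakdown, fell from 26.4, 26.7 and 23 to 11.7, 9.26 and 9.21 CPM (-1.32) and ALDH5A1, which oxidises succinic semialdehyde, from 27.3, 22.9 and 23.4 to 11.6, 10.5 and 10.4 (-1.17), and no drug library reached a vehicle library for either gene.

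Of 32 SOX, KLF and lineage factors 14 rose and 5 fell, beside 25.0% and 27.3% of all genes. SOX2, a factor of stem cells, fell from 111, 99.2 and 101 to 52.5, 57.9 and 61 CPM in E5 cells (-0.86), less than in control cells (-2.78, from 175, 179.5 and 196 to 27.4, 27.1 and 25.7, adjusted p of the difference = 7.4e-09), and RUNX2, a factor of bone formation, rose from 14.1, 13.3 and 14 to 23.9, 24.1 and 26 (0.85). Of 39 splicing factors 16 fell and 6 rose. The difference from control cells was higher for 21 and lower for none, beside 13.3% and 12.4% of all genes, and these are 8 and 0 on log2(FPKM + 0.1). SRSF2, a serine-rich splicing factor, fell with -0.39 in E5 and -1.06 in control cells (adjusted p of the difference = 1.6e-05), while CLK4, a kinase of such factors, rose in both (0.83 and 0.70).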
